A study of Mus musculus with 6 samples.

Results

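The genes described here are 9 markers of mast cells: the granule proteases Cma1, Mcpt4, Cpa3 and Tpsb2, the growth factor receptor Kit, the IgE receptor subunits Fcer1a and Ms4a2, the histamine-forming enzyme Hdc and the transcription factor Gata1. They were found by gene symbol, and all 9 were present among the 29752 genes measured in each library. RNA was sequenced from aortas of C57BL/6 mice, which started a normal diet at 8 weeks of age and were 15 weeks old after 7 weeks on it. The comparison was between 3 libraries of wild-type mice and 3 libraries of mice heterozygous for Palmd (PALMD+/-), which encodes palmdelphin, and strain, tissue, age and diet were the same in both groups. The labels do not say how the Palmd allele was altered, nor whether the libraries stand for separate animals. All p-values therefore measure only how these samples spread, which may be technical.

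Mast cells are tissue-resident immune cells that leave the bone marrow as progenitors and mature in connective tissue and mucosa, including the outer layer of arteries and the fat around them. Their survival depends on the receptor KIT and its ligand, and binding of antigen to IgE on the high-affinity receptor makes them release granules filled with proteases, histamine and proteoglycan. In mice, connective tissue mast cells store the chymases encoded by Cma1 and Mcpt4, the tryptase encoded by Tpsb2 and the carboxypeptidase encoded by Cpa3, whereas mucosal mast cells store the chymases encoded by Mcpt1 and Mcpt2.

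None of the 6 mast cell genes high enough to be tested passed the test between genotypes, as none of all 12620 tested genes did. The groups overlapped for all 9 mast cell genes, and they failed to overlap for only 12.9% of all tested genes. The 4 granule proteases had higher means in heterozygotes, by a factor of 1.30 to 1.59, but their groups overlapped. Kit and Hdc had nearly the same mean in both groups, and Fcer1a, Ms4a2 and Gata1 were close to the lower limit of measurement. Over the 6 libraries the proteases rose and fell together, for most pairs in part through wild type replicate 2 and heterozygote replicate 2. Hdc did not follow the proteases. For each protease the highest library was heterozygote replicate 2 and the lowest was wild type replicate 2, as numbered by the sample titles. The file of heterozygote replicate 2 carries the number 1 in its header.

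Levels are in FPKM, the authors' read numbers per gene length and library size, and so can be compared between genes. The number of reads by which each library was divided was 17283951 to 18372131. Heterozygote replicate 2 was unlike the rest, with a mean correlation to the others of 0.930, where each other library had 0.960 to 0.971. It was the highest of the 6 libraries for 26.4%, the lowest for 34.3% and either of these for 60.6% of the 12620 genes that passed a filter of at least 1 FPKM in at least 3 libraries. Smooth muscle markers identified all libraries as vessel wall, with Acta2, the smooth muscle actin, at 3701 to 8367 FPKM. Palmd was at 5.49, 7.88 and 10.1 FPKM in the wild-type libraries 1 to 3, and the heterozygote libraries 1 to 3 had 5.31, 7.19 and 6.21 FPKM, with overlapping groups (limma adjusted p = 0.915). Reads over the whole gene may also come from an altered allele, so this level does not check the genotype labels.

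**Figure D1:**
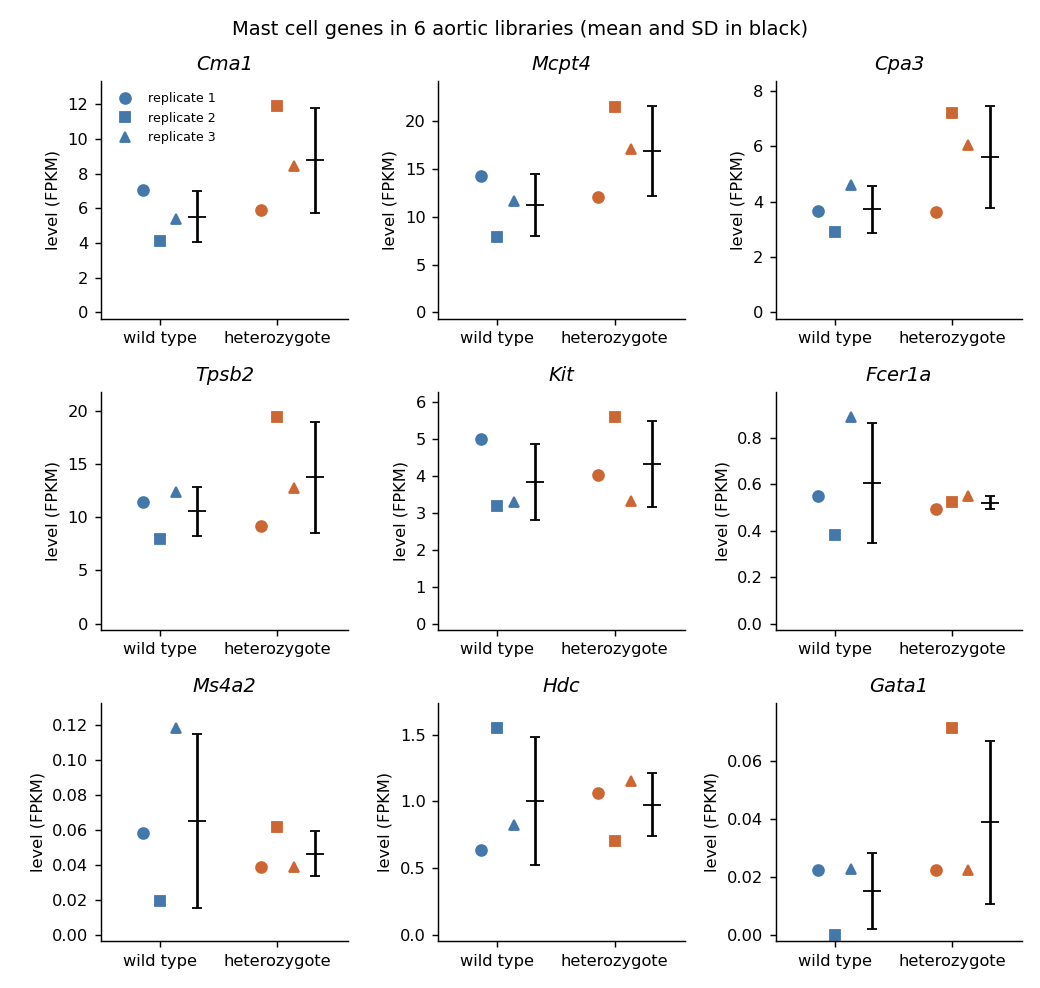
Level of each of the 9 mast cell genes in FPKM (vertical axes, each from 0) in 3 wild-type and 3 heterozygote libraries. Symbols mark the replicate number and black marks the mean and SD of each group. Heterozygote replicate 2 is the highest library for the 4 proteases, Kit and Gata1, and the groups overlap for all 9 genes.

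Cma1 encodes the chymase mMCP-5 (ENSMUSG00000022225, GRCm38 chromosome 14, 55941451 to 55944675, minus strand). It was at 7.03, 4.11 and 5.38 FPKM in the wild-type libraries 1 to 3, and the heterozygote libraries 1 to 3 had 5.91, 11.9 and 8.46 FPKM. Heterozygote replicate 1 lay inside the wild-type range and the other two heterozygote libraries lay above it. The means were 5.50 ± 1.47 and 8.76 ± 3.01 FPKM (SD, n = 3). The log2 fold change of FPKM + 1 was 0.56 (SE 0.26, 95% interval -0.07 to 1.20, limma adjusted p = 0.792), an interval that reaches from a fold of 0.951 to 2.30 on that scale. These levels stood for 81 to 221 reads of Cma1 a library. An exact two-sided permutation test gave p = 0.2, where 3 libraries against 3 cannot give less than 0.1.

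Mcpt4 encodes the chymase mMCP-4, which like human chymase can form angiotensin II, and lies 115 kb from Cma1 in the same protease gene cluster (ENSMUSG00000061068, chromosome 14, 56059629 to 56062313, minus strand). It was the most abundant of the 9 genes by the mean of all libraries. Its levels were 14.3, 7.86 and 11.6 FPKM in the wild-type libraries 1 to 3, and the heterozygote libraries 1 to 3 had 12.0, 21.4 and 17.1 FPKM. As for Cma1, heterozygote replicates 2 and 3 were above all wild-type libraries and heterozygote replicate 1 was not. The means were 11.2 ± 3.21 and 16.8 ± 4.73 FPKM (SD, n = 3), with a log2 fold change of 0.54 (SE 0.27, 95% interval -0.10 to 1.19, limma adjusted p = 0.805). Between 143 and 367 reads a library were counted for Mcpt4. The exact permutation p was 0.2.

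Cpa3 encodes mast cell carboxypeptidase A, which trims peptides from the carboxyl end and is stored in complex with mMCP-5 (ENSMUSG00000001865, chromosome 3, 20215620 to 20242181, minus strand). It was at 3.64, 2.91 and 4.61 FPKM in the wild-type libraries 1 to 3, and the heterozygote libraries 1 to 3 had 3.61, 7.21 and 6.03 FPKM. Heterozygote replicate 1 was below 2 of the 3 wild-type libraries. The means were 3.72 ± 0.856 and 5.62 ± 1.83 FPKM (SD, n = 3), with a log2 fold change of 0.46 (SE 0.24, 95% interval -0.12 to 1.04, limma adjusted p = 0.818). Cpa3 had 81 to 189 reads a library. The exact permutation p was 0.3.

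Tpsb2 encodes the tryptase mMCP-6, a tetrameric trypsin-like enzyme that is bound to heparin in the granule (ENSMUSG00000033825, chromosome 17, 25366305 to 25369098, plus strand). It was at 11.4, 7.96 and 12.3 FPKM in the wild-type libraries 1 to 3, and the heterozygote libraries 1 to 3 had 9.17, 19.4 and 12.7 FPKM. Here heterozygote replicate 3 was close to wild type replicate 3, and only heterozygote replicate 2 was clearly apart. The means were 10.6 ± 2.31 and 13.8 ± 5.21 FPKM (SD, n = 3), with a log2 fold change of 0.31 (SE 0.28, 95% interval -0.36 to 0.99, limma adjusted p = 0.924). Its values stood for at least 158 to 363 reads a library. The exact permutation p was 0.4.

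The size of the protease differences rested in part on the library that stood apart. Without heterozygote replicate 2 the log2 fold changes of Cma1, Mcpt4, Cpa3 and Tpsb2 were 0.34, 0.36, 0.29 and 0.05, and without wild type replicate 2 they were 0.40, 0.33, 0.33 and 0.14. Without heterozygote replicate 1, the library with the lowest protease sum of its group, they were 0.79, 0.75, 0.70 and 0.55, and the lowest limma adjusted p was 0.625. Summed over the 4 proteases, the level was 36.4, 22.8 and 33.9 FPKM in the wild-type libraries 1 to 3, and the heterozygote libraries 1 to 3 had 30.7, 60.0 and 44.3 FPKM. The sum thus ran over a factor of 2.63 between libraries. In bulk tissue, fewer mast cells and less RNA per mast cell cannot be told apart.

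**Figure D2:**
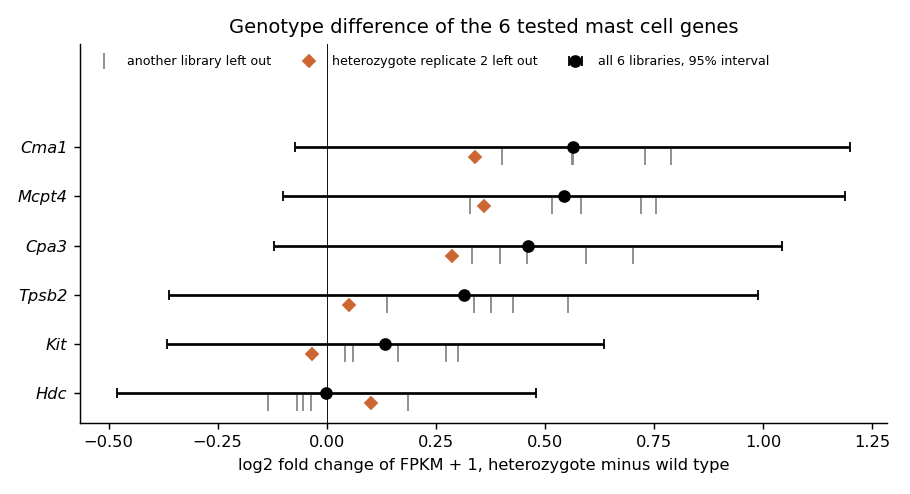
Log2 fold change of FPKM + 1, heterozygote minus wild type, for the 6 mast cell genes that passed the filter (black points with 95% intervals from limma), with the values after leaving out heterozygote replicate 2 (diamonds) or each other library (grey ticks). Every interval includes 0, and without heterozygote replicate 2 Tpsb2 and Kit lie at 0.050 and -0.033.

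Of the 9 genes, 6 passed the filter and were tested, and none was called in either direction by limma at an adjusted p of 0.05, as none of all 12620 tested genes was (0% higher and 0% lower). At an unadjusted limma p under 0.05 there were 512 higher genes (4.06%) and 308 lower genes (2.44%), and 0 of the 6. The groups did not overlap for 12.9% of all tested genes (7.8% higher and 5.12% lower in heterozygotes) and for 0 of the 6. The log2 fold change was positive for 5 of the 6, against 53.1% of all tested genes, and the median was 0.39, against 0.01. The 6 genes were measured in the same 6 libraries and do not count as separate observations.

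The ratios between the 4 proteases varied less than their levels, and the ratio of the 2 chymases varied least. Mcpt4 made up 34.2% to 39.2% of the summed FPKM of the 4 genes, Tpsb2 28.7% to 36.3%, Cma1 15.8% to 19.8% and Cpa3 10.0% to 13.6%. The ratio of Mcpt4 to Cma1, the 2 chymases, was 2.03, 1.92 and 2.16 in wild type and 2.03, 1.80 and 2.02 in heterozygotes. Across the 6 libraries its coefficient of variation was 6.09%, whereas that of Cma1 alone was 38.8% and that of Mcpt4 alone 33.8%. The ratio of Tpsb2 to Cma1 was looser, from 1.50 to 2.29, and was 1.95 ± 0.333 in wild type and 1.56 ± 0.0655 in heterozygotes (SD, n = 3). The ratio of Cpa3 to Cma1 ran from 0.518 to 0.858, with a coefficient of variation of 17.6%.

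Over the 6 libraries the log2 levels of Cma1 and Mcpt4 had a Pearson r of 0.986 (exact permutation p = 0.00139, adjusted over 15 gene pairs 0.0208) and a Spearman rho of 1 (exact permutation p = 0.00278, adjusted 0.0208). Leaving out the 2 libraries farthest from the median, wild type replicate 2 and heterozygote replicate 2, gave an r of 0.993. Cpa3 and Tpsb2 had an r of 0.927 (exact permutation p = 0.00417, adjusted 0.0313) and a rho of 1 (adjusted exact p = 0.0208), and an r of 0.892 without heterozygote replicates 2 and 3. The other 4 protease pairs had an r of 0.888 to 0.906 and a rho of 0.829, with adjusted exact p of 0.0590 for r and 0.109 for rho. For these 4 pairs r was 0.756 to 0.825 without heterozygote replicate 2, and 0.403 to 0.630 without wild type replicate 2 and heterozygote replicate 2. They thus rested in part on those 2 libraries, whose removal also narrows the range. Cpa3 and Tpsb2 had an r of 0.859 without heterozygote replicate 2 alone. Their r of 0.892 left out the 2 libraries farthest from the median of Cpa3 and kept wild type replicate 2. It cannot be set against the 0.403 to 0.630 of the 4 pairs. Over the 6 libraries, and without heterozygote replicate 2 alone, the closest pairs were the chromosome 14 chymases and the carboxypeptidase with the tryptase. The genes of the latter pair lie on chromosomes 3 and 17.

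**Figure D3:**
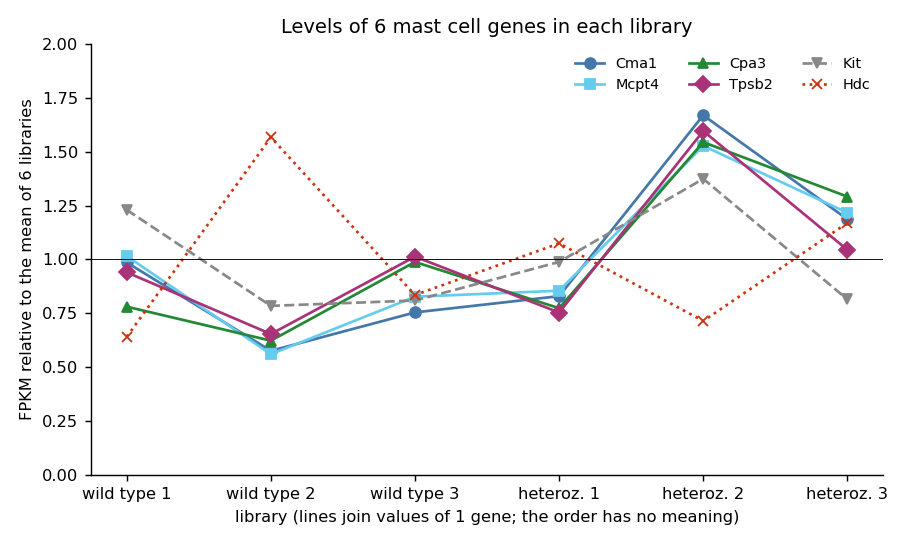
FPKM of 6 mast cell genes relative to each gene's mean over the 6 libraries (vertical axis) in each library (horizontal axis). The 4 proteases (solid lines) are lowest in wild type replicate 2 and highest in heterozygote replicate 2, Kit (dashed) follows them in part, and Hdc (dotted) is highest in wild type replicate 2.

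The sequences before the gene starts are shown for 3 of the proteases that varied together and for Hdc, which did not follow them. GATA factors bind hexamers with a GATA core and are known to act on mast cell genes. The searched words were AGATAA and AGATAG, as well as TGATAA and TGATAG, on both strands, in the 250 bases before the start, from RefSeq's GRCm38.p6 table. For Hdc and Gata1 the RefSeq start lies inside the gene span of GENCODE M21 given here, so their windows lie within that span. Matches are in capitals (a match on the other strand appears as its reverse complement), and all sequences run 5′ to 3′ on the gene's strand. The windows are chr14:55944676-55944925, minus strand for Cma1, chr14:56062311-56062560, minus strand for Mcpt4, chr3:20242182-20242431, minus strand for Cpa3 and chr2:126618679-126618928, minus strand for Hdc.
Cma1: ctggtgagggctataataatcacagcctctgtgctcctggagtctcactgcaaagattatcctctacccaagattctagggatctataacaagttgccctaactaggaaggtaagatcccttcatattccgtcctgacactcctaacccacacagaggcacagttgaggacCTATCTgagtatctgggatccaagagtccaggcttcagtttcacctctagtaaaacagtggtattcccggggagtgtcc
Mcpt4: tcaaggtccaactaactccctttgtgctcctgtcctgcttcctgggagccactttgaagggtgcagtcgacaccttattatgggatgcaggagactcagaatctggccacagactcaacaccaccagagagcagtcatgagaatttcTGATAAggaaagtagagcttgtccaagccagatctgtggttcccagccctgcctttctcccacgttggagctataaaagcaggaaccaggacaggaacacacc
Cpa3: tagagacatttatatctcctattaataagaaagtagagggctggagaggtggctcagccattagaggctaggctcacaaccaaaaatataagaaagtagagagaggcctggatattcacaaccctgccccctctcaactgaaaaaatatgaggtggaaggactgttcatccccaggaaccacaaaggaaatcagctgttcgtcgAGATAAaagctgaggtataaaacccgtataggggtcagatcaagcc
Hdc: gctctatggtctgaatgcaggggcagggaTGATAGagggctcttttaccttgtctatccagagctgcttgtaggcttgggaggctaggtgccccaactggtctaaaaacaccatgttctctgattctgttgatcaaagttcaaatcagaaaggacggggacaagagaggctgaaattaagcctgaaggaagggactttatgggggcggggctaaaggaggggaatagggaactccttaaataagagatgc

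Each of these 4 windows held 1 match. It began 79 bases before the start in Cma1, 103 in Mcpt4, 46 in Cpa3 and 221 in Hdc, counted from the RefSeq starts. Among the 8 members with a window in the table, 6 held at least 1 match, as did 26.5% of all 32851 windows. Ms4a2 had 3 matches, Fcer1a 1, and the windows of Kit and Gata1 had none. The words CATGTG and CACGTG, bound by MITF, the other main factor of mast cells, were found on either strand in the window of 1 member, Fcer1a, and in 17.6% of all windows. A match describes the letters only.

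Kit encodes the receptor tyrosine kinase for stem cell factor, on which mast cells depend (ENSMUSG00000005672, chromosome 5, 75574916 to 75656722, plus strand). It was at 5.01, 3.19 and 3.30 FPKM in the wild-type libraries 1 to 3, and the heterozygote libraries 1 to 3 had 4.03, 5.60 and 3.32 FPKM. Wild type replicate 1 and heterozygote replicate 2 were the high libraries, 1 in each group. The means were 3.83 ± 1.02 and 4.31 ± 1.17 FPKM (SD, n = 3), with a log2 fold change of 0.13 (SE 0.21, 95% interval -0.37 to 0.64, limma adjusted p = 0.956), and -0.033 without heterozygote replicate 2. Between 523 and 862 reads a library were counted for Kit. The exact permutation p was 0.5.

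Kit followed the chymases by rank but less closely by level, and whether it differs in this from the proteases was not tested. In heterozygote replicate 3, which had the second highest protease sum, Kit was close to its lowest level. Its r with the proteases ran from 0.368 with Cpa3 to 0.706 with Cma1 (exact permutation p = 0.451 and 0.115, adjusted over 15 pairs 0.451 and 0.211), with rho of 0.543 and 0.829 (adjusted exact p = 0.405 and 0.109). Mcpt4 and Kit had the same rho of 0.829, which was also that of 4 of the 6 protease pairs. Between Kit and Cma1 r was 0.362 without heterozygote replicate 2 and 0.0514 without it and wild type replicate 2, so the relation rested on those libraries. Melanocytes, interstitial pacemaker cells and some lymphoid cells also use KIT. Of melanocyte markers the pigment enzymes Tyr and Tyrp1 did not exceed 0.0196 FPKM in any library. The third pigment enzyme, Dct, was at 0.0242 to 0.344 FPKM, Pmel at 0.430 to 0.848 FPKM and Mlana at 1.49 to 4.22 FPKM. The chloride channel Ano1, found on pacemaker cells and also in arterial muscle, was at 7.23 to 14.1 FPKM. The part of such cells in the Kit level was not tested.

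The high-affinity IgE receptor was detected at a low level. Fcer1a, its IgE-binding alpha chain (ENSMUSG00000005339, chromosome 1, 173221284 to 173227214, minus strand), was at 0.548, 0.382 and 0.890 FPKM in the wild-type libraries 1 to 3, and the heterozygote libraries 1 to 3 had 0.494, 0.522 and 0.549 FPKM. This stood for 7 to 16 reads a library, 33 in all in wild type (95% exact Poisson interval 22.7 to 46.3) and 28 in heterozygotes (18.6 to 40.5). The groups overlapped, with the highest and the lowest value both in wild type, and the exact permutation p was 0.8. Heterozygote replicate 2, the highest library for the proteases, had 9 reads of Fcer1a, within the range of the others.

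Ms4a2 encodes the beta chain, which amplifies the receptor's signal (ENSMUSG00000024680, chromosome 19, 11615523 to 11623719, minus strand). It had 3, 1 and 6 reads in wild type replicates 1 to 3 and 2, 3 and 2 reads in heterozygote replicates 1 to 3, or 0.0193 to 0.118 FPKM. The summed 10 and 7 reads have exact Poisson intervals of 4.80 to 18.4 and 2.81 to 14.4, so a difference was not detectable at this depth. Fcer1g, the signalling gamma chain that macrophages also carry, was at 12.0 ± 0.406 (wild type) and 12.1 ± 1.38 FPKM (heterozygotes; SD, n = 3; log2 fold change 0.00, limma adjusted p = 1.000). Poisson intervals and read floors cover counting error only.

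Gata1, a factor of mast cells, red cells, platelets and eosinophils (ENSMUSG00000031162, chromosome X, 7959260 to 7978071, minus strand), had 1, 0 and 1 reads in wild type and 1, 3 and 1 reads in heterozygote replicates 1 to 3. A count of 0 allows up to 3 reads, which for Gata1 is 0.0670 to 0.0712 FPKM depending on the library, so no library but heterozygote replicate 2 (0.0712 FPKM) reached that floor. The red cell transcript Hbb-bs, a globin, was at 217 FPKM in wild type replicate 2, where Gata1 had 0 reads, and at 48.7 to 153 FPKM elsewhere. Gata2, the related factor that mast cells share with endothelium, was much higher, at 17.3 ± 3.43 (wild type) and 14.6 ± 2.97 FPKM (heterozygotes; SD, n = 3; log2 fold change -0.24, limma adjusted p = 0.915).

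Hdc encodes histidine decarboxylase, the enzyme that makes histamine (ENSMUSG00000027360, chromosome 2, 126593667 to 126619299, minus strand). It was at 0.634, 1.55 and 0.826 FPKM in the wild-type libraries 1 to 3, and the heterozygote libraries 1 to 3 had 1.06, 0.706 and 1.16 FPKM. The library with the lowest proteases, wild type replicate 2, had the highest Hdc, and heterozygote replicate 2 had the second lowest. The means were 1.00 ± 0.484 and 0.975 ± 0.238 FPKM (SD, n = 3), with a log2 fold change of -0.00094 (SE 0.20, 95% interval -0.48 to 0.48, limma adjusted p = 1.000) and an exact permutation p of 1. Hdc had 74 to 182 reads a library. Its r with the 4 proteases ran from -0.433 to -0.681 (exact permutation p = 0.389 and 0.126, adjusted over 15 pairs 0.417 and 0.211), and with Kit it was -0.755 (exact permutation p = 0.0819, adjusted 0.176). The rho was -0.429 to -0.486 with the proteases and -0.771 with Kit (adjusted exact p = 0.171 to 0.419).

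Neutrophils and basophils can also make histamine. The summed level of 9 neutrophil markers was 0.668, 11.0 and 4.18 FPKM in the wild-type libraries 1 to 3, and the heterozygote libraries 1 to 3 had 1.81, 0.408 and 0.413 FPKM, with the largest value in wild type replicate 2, where Hdc was highest, and 1 marker, Ly6g, at 0 in every library. Heterozygote replicate 3 had the second highest Hdc with few neutrophil transcripts. Of the basophil markers, the protease Prss34 reached at most 0.225 FPKM and the receptor Cd200r3 at most 0.0483 FPKM. The less restricted Il3ra, a receptor chain, was at 2.75 to 4.98 FPKM and the cytokine Il4 at 1.86 to 3.21 FPKM. The part of these cells in the Hdc level was not tested.

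Among the near relatives of the granule proteases, Mcpt1, a chymase of mucosal mast cells, was at 0.0532 FPKM in wild type replicate 1 and listed at 0 in the other 5 libraries. Tpsab1, the tryptase near Tpsb2, is classed as protein-coding by GENCODE M21 but by RefSeq as a transcribed pseudogene in this C57BL/6 assembly. Its 60 reads in all gave 0.0780 to 0.445 FPKM, against 7.96 to 19.4 FPKM for Tpsb2, with which it shared no 75-base word of transcript sequence. Tpsg1, a membrane-anchored tryptase, was at 0.0417 to 0.315 FPKM. No gene with the symbol Mcpt2, Mcpt8 or Mcpt9 was found among the genes measured. The proteases of connective tissue mast cells were thus present, and the mucosal chymase that was measured was near 0.

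Other genes of mast cells were fixed as a list of 36, of which 34 were in the files and 17 were tested. Of these 9 had a positive and 8 a negative log2 fold change, 0 were called, and the median was 0.00, against 0.01 over all tested genes. Il1rl1, the receptor for interleukin 33, was at 0.492 ± 0.182 (wild type) and 0.554 ± 0.217 FPKM (heterozygotes), and Hpgds, which makes prostaglandin D2, was at 0.507 ± 0.152 and 0.694 ± 0.120 FPKM (SD, n = 3). Both were highest in heterozygote replicate 2 and lowest in wild type replicate 2, as the proteases were. Most of the list did not share this. Heterozygote replicate 2 was highest for 12 of its 34 genes and for 2 of the 17 tested, against 26.4% of all tested genes. The mast cell receptors Mrgprb1 and Mrgprb2, named after their values were seen, were also highest in heterozygote replicate 2, at 0.691 and 0.557 FPKM, against 0.288 to 0.471 and 0.132 to 0.211 FPKM elsewhere. For Mrgprb2 this was 20 reads against 5 to 8, and neither was lowest in wild type replicate 2. The tryptase Tpsg1 was instead lowest in heterozygote replicate 2, at 0.0417 FPKM, and Tpsab1 was highest in heterozygote replicate 1 and lowest in wild type replicate 2. That order, heterozygote replicate 2 highest and wild type replicate 2 lowest, held for 5 of the 6 tested members and for 4.79% of all tested genes, and it was noticed in the data and is not independent between members.

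The 4 members of that list with the smallest p were Enpp3, Tal1, Srgn and Gata2, none of which followed the proteases. Enpp3, an ectoenzyme of activated mast cells and basophils, was at 4.25 ± 0.345 (wild type) and 6.18 ± 1.04 FPKM (heterozygotes), with groups that did not overlap (log2 fold change 0.44, SE 0.13, limma adjusted p = 0.618). Srgn, the granule proteoglycan core that other leukocytes and endothelium also make, was at 31.9 ± 3.81 and 23.5 ± 9.21 FPKM, and Tal1, a factor shared with endothelium, at 5.35 ± 0.243 and 3.67 ± 1.67 FPKM, without overlap (limma adjusted p = 0.861 and 0.824). Srgn, Tal1 and Gata2 were lowest in heterozygote replicate 2, as were summed endothelial markers, at 208 FPKM there and 645 to 729 FPKM elsewhere. The part of endothelium in these values was not tested.

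The transporter that loads histamine into granules, Slc18a2, was at 1.21, 0.644 and 2.56 FPKM in the wild-type libraries 1 to 3, and the heterozygote libraries 1 to 3 had 1.09, 28.8 and 0.691 FPKM. The high library was again heterozygote replicate 2, by far more than for any protease, and the log2 fold change was 1.01 (SE 1.08, limma adjusted p = 0.934). Sympathetic neurons and adrenal chromaffin cells use the same transporter. All 9 genes of a list for these cells, chosen after the Slc18a2 values were seen, were highest in that library, and their summed level was 527 FPKM there, 41.3 FPKM in wild type replicate 3 and 0.992 to 4.68 FPKM in the other 4. The defining enzymes of catecholamine synthesis, Th and Dbh, were at 66.7 and 120.4 FPKM in heterozygote replicate 2 and at or below 3.81 and 5.88 FPKM elsewhere. The part of such cells in the Slc18a2 level was not tested.

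The signalling genes downstream of KIT and the IgE receptor, 28 in the list, had 23 tested members, 6 with a positive and 17 with a negative log2 fold change and 0 called. Their median was -0.10, against 0.01 over all tested genes, of which 53.1% had a positive log2 fold change. The genes of the list were measured in the same libraries and do not count as separate observations. The 4 with the smallest p were the kinase Fyn, at 15.1 ± 0.986 (wild type) and 11.9 ± 1.79 FPKM (heterozygotes; log2 fold change -0.33, limma adjusted p = 0.758), the phosphatase Inpp5d (-0.20), the adaptor Sh2b3 (-0.25) and the kinase subunit Pik3cd (0.28), with adjusted p of 0.851 to 0.888. Most of these genes act in many cell types.

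Of the factors that act on mast cells, 6 of 11 were tested and 0 called, with a median of -0.01. Kitl, the ligand of KIT, was at 9.01 ± 1.36 (wild type) and 9.43 ± 1.78 FPKM (heterozygotes), a log2 difference of 0.06 (SE 0.16, limma adjusted p = 0.981). Il33, the alarmin that acts through Il1rl1, was at 14.1, 18.5 and 20.8 FPKM in the wild-type libraries 1 to 3, and the heterozygote libraries 1 to 3 had 13.7, 9.36 and 12.96 FPKM. All heterozygote values were below the wild-type values, but the log2 fold change of -0.53 (SE 0.19) had a limma adjusted p of 0.731. The next by p were Tgfb1 (-0.28), Il4 (0.18) and Cxcl12 (0.06).

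In the list of histamine handling and receptors, 5 of 11 members were tested, all with a positive log2 fold change, a median of 0.19 and 0 called. The tested genes were Hnmt, Aldh7a1, Maob, Slc22a3 and the transporter Slc18a2 described above, and no receptor was among them. Over all tested genes 53.1% were positive and the median was 0.01. The log2 fold changes of Maob and Slc22a3 were only 0.003 and 0.03. Heterozygote replicate 2 was the highest library for 4 of the 5, and for 26.4% of all tested genes. Hnmt, which inactivates histamine by methylation, was at 4.08 ± 0.928 (wild type) and 5.81 ± 3.05 FPKM (heterozygotes; log2 fold change 0.35, limma adjusted p = 0.924), with 9.26 FPKM in heterozygote replicate 2. The receptors Hrh1, Hrh2, Hrh3 and Hrh4 each reached at most 0.409 FPKM. Of the genes that process or inhibit granule proteases 8 of 12 were tested, with 5 positive, 3 negative and 0 called. Ctsc, a peptidase that activates chymases, was at 15.4 ± 1.42 and 15.8 ± 0.616 FPKM, and Chst11, a sulfotransferase of chondroitin chains, at 5.77 ± 0.321 and 4.36 ± 0.550 FPKM (limma adjusted p = 0.977 and 0.643).

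In the angiotensin list, chosen because chymase is an alternative to angiotensin-converting enzyme, 8 of 11 members were tested and 0 called, 4 in each direction. Ace was at 202, 188 and 170 FPKM in the wild-type libraries 1 to 3, and the heterozygote libraries 1 to 3 had 201, 53.6 and 189 FPKM, so that the library with the most chymase transcript had the least Ace. Summed endothelial markers were also lowest there, at 208 FPKM against 645 to 729 FPKM, and their part in the Ace level was not tested. The log2 fold change of Ace was -0.55 (SE 0.50, limma adjusted p = 0.924). Enpep, which trims angiotensin II, was at 5.26 ± 0.954 and 9.06 ± 2.07 FPKM with groups that did not overlap (log2 fold change 0.67, SE 0.18, limma adjusted p = 0.596), and the receptor Agtr1a and the precursor Agt had log2 fold changes of 0.91 and 0.65 (limma adjusted p = 0.856 and 0.861). Agtr1a was at 9.84 FPKM in heterozygote replicate 2 and at 0.977 to 1.87 FPKM in the other 5 libraries.

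Other cell types did not all follow the proteases over the libraries. Summed white adipocyte markers (9 genes) were at 1867, 2985 and 4264 FPKM in the wild-type libraries 1 to 3, and the heterozygote libraries 1 to 3 had 1550, 5519 and 2187 FPKM. Heterozygote replicate 2 was thus highest for fat markers and for proteases, but wild type replicate 2 had the lowest protease sum and more fat marker signal than 3 of the other libraries. With the adipocyte level as a covariate the log2 fold changes of Cma1, Mcpt4, Cpa3 and Tpsb2 were 0.59, 0.57, 0.50 and 0.36, with limma adjusted p of 0.255 to 0.427. Summed markers common to leukocytes (9 genes) were at 51.9 to 60.3 FPKM in wild type and 56.0 to 63.8 FPKM in heterozygotes, and macrophage markers (11 genes) at 266 to 324 and 276 to 359 FPKM. B cell markers (5 genes) were highest in heterozygote replicate 2, at 11.6 FPKM, against 1.69 to 7.90 FPKM elsewhere, as were peripheral nerve markers (6 genes), at 74.0 FPKM against 16.2 to 23.3 FPKM. Smooth muscle markers (7 genes) were at 5976 FPKM in that library and 8434 to 12740 FPKM elsewhere. Of the 6 eosinophil markers measured, the peroxidase Epx was at 0 in all libraries and Ear2, a ribonuclease, was at 3.81 to 6.02 FPKM. Prg2 reached at most 0.261 FPKM, and Siglecf, Ccr3 and Il5ra each at most 0.0919 FPKM. The part of tissue make-up in the protease levels was not tested beyond these values.

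**Figure D4:**
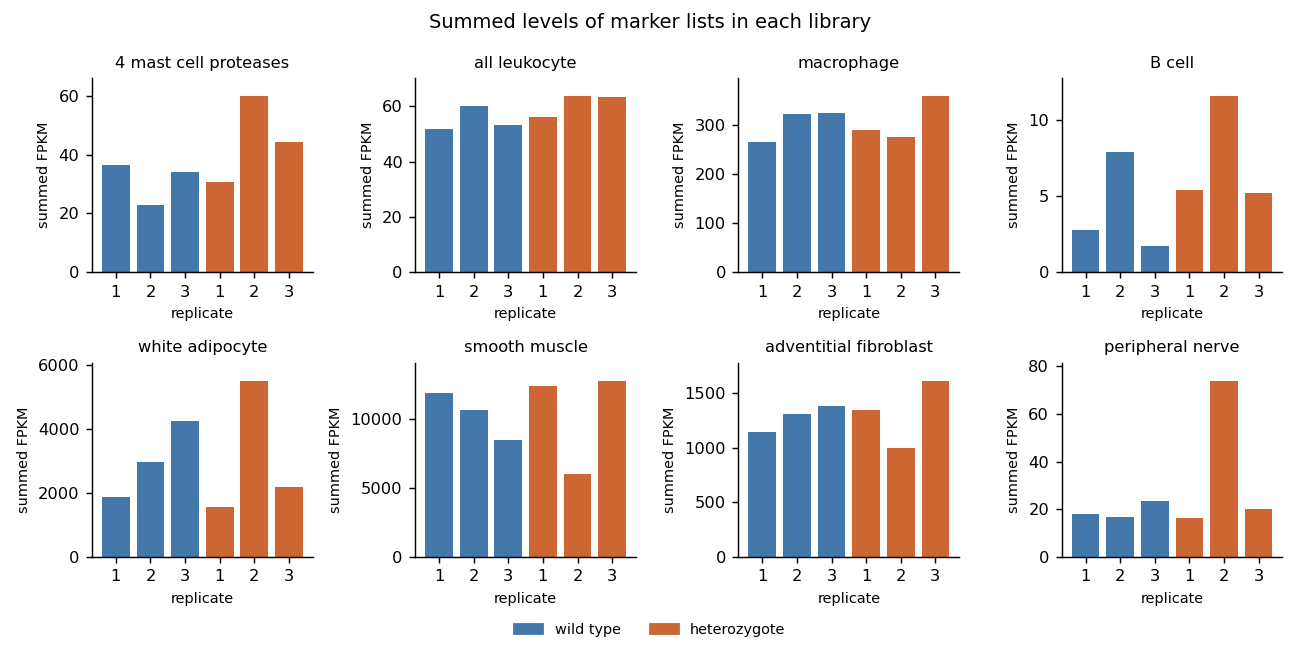
Summed FPKM of the 4 mast cell proteases and of 7 marker lists (vertical axes from 0) in each library, wild type in blue and heterozygote in orange, replicates 1 to 3 from left to right. Heterozygote replicate 2 has the highest protease sum (60.0 FPKM), the most white adipocyte and nerve marker signal, and the least smooth muscle and adventitial fibroblast signal.

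The genes most like the 6 tested members over the 6 libraries were found by Pearson correlation with the mean of the members' standardized log2 levels. The 10 genes at the top, members and predicted genes left out, were Arhgap18, Ppcdc, Mfap3l, Pgpep1, Trappc2l, C2cd2l, Lcmt1, Psmc5, Aoc3 and Fam105a, with r of 0.972 to 0.988. Of all 12620 genes 40 had an r above 0.95, and without heterozygote replicate 2 the r of the 10 genes was 0.899 to 0.999. None of the 10 was in a marker list. Among the members themselves the r was 0.989 for Cma1, 0.964 for Mcpt4, 0.933 for Tpsb2, 0.926 for Cpa3, 0.660 for Kit and -0.537 for Hdc. Each of these 6 genes is part of the mean it was compared with, which raises its r. These values therefore cannot be set against those of the 10 genes. With 6 libraries, high values arise for many genes that differ in 1 library, and these names are a description.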

How the data were processed

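RNA from mouse aorta was sequenced in 3 wild-type and 3 Palmd heterozygous libraries, grouped and numbered by their titles. Per the labels' protocols, RNA was extracted with Trizol, enriched for poly(A) on beads, broken up and copied from random primers, and nothing is said of strand. The authors deposited FPKM values (reads or fragments scaled by gene length and library reads), 1 file per library. HISAT2 2.1.0, Bowtie2 2.2.3, TopHat2 and GRCm38 are named in the submitters' processing notes. For the counting tool and the annotation, no source used here gives a name. Replicate numbers follow the titles, from which the heterozygote file headers differ.

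Multiplied by exon length in GENCODE M21 (GRCm38), 94.8% to 95.2% of values under 30 reads were whole reads (tolerance 0.01), which gave the reads per library. For Cma1, Mcpt4 and Tpsb2 other lengths fitted. The voom alternative kept the GENCODE lengths for these genes too, so its input for them was not their true read numbers. 1 read on a 2 kb gene is worth 0.0272 to 0.0289 FPKM. The main test was limma 3.58.1 (R 4.3.3) with a mean-variance trend on log2(FPKM + 1), which understates changes of low genes, for genes of at least 1 FPKM in at least 3 libraries, with Benjamini-Hochberg adjustment and a threshold of 0.05. It was tested on simulated data. Exact permutation tests of FPKM means and of correlations, tables and plots used Python 3.11.15, numpy 2.4.6, pandas 2.3.3 and matplotlib 3.10.9. Alternatives were another pseudocount, no filter, quantile and upper-quartile scaling, voom on recovered reads, no trend, a replicate block, an adipocyte covariate and leaving out each library.

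The members, the 29 lists (269 of 276 entries found) and the tests were chosen with earlier results of these data known. Named genes were the members, their protease relatives, Palmd, the more restricted mast cell genes at a mean of at least 0.5 FPKM, up to 4 genes with the smallest p of each list described, and the 10 genes most like the members. Other genes were named after their values were seen. Other lists served only as marker levels. Of the members, Cma1, Mcpt4 and Ms4a2 shared 1.67%, 2.515% and 1.225% of their 75-base transcript words with another gene and the other 6 none, and no annotated exon of another gene overlapped theirs. Promoter windows come from RefSeq (GRCm38.p6), where 8 of the 9 members matched.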

Additional observations from a re-analysis of the deposited data

How the results depend on the processing

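No mast cell gene was called under any of the 14 alternatives, and no gene of the whole table was called under the 8 that kept all libraries; with 1 library left out, 0 to 1 genes of the whole table and 0 to 0 mast cell genes were called. At an unadjusted p under 0.05, voom had 513 higher and 314 lower genes, where limma on log2(FPKM + 1) had 512 and 308. Cma1, Mcpt4, Cpa3 and Tpsb2 kept a positive log2 fold change in all 14. With 1 library left out it ranged from 0.34 to 0.79 for Cma1, 0.33 to 0.75 for Mcpt4, 0.29 to 0.70 for Cpa3 and 0.05 to 0.55 for Tpsb2. Kit turned negative in 1, at -0.033 without heterozygote replicate 2, and reached 0.30 without wild type replicate 1. Hdc, at -0.00094, turned positive in 6: at 0.024 with log2(FPKM + 0.1), 0.021 with quantile normalization, 0.0034 with upper-quartile scaling, 0.037 with voom on recovered reads, 0.19 without wild type replicate 2 and 0.10 without heterozygote replicate 2 (range with 1 library left out -0.13 to 0.19). The cause was not tested. At an unadjusted limma p under 0.05, Cma1 passed under 3 alternatives, and Mcpt4 and Cpa3 under 2 each: without heterozygote replicate 1 for all 3 genes, without wild type replicate 1 for the 2 chymases, and with the adipocyte covariate for Cma1 and Cpa3.

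Whether the replicate numbers pair the samples could not be decided with 3 libraries a group, where such correlations depend on each other. Same-numbered libraries had correlations of their deviations of 0.508, -0.0877 and -0.342, and libraries with unlike numbers had -0.541 to 0.551. The numbers were those of the titles. With the replicate block 0 genes of the whole table and 0 mast cell genes were called, and the log2 fold change of Cma1 was 0.56 (SE 0.32). Fcer1a, Ms4a2 and Gata1 were fitted only without a filter, at -0.07, -0.02 and 0.03, where depth allows no statement for Ms4a2 and Gata1.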
